A study of Homo sapiens with 2 samples.

Results

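The genes described are 10 of the 26255 gene symbols in the tables: MPHOSPH8, FAM208A and PPHLN1, which encode the core of the HUSH silencing complex; SETDB1, ATF7IP and MORC2, its effectors; TRIM28, which encodes KAP1; and CBX1, CBX3 and CBX5, which encode the HP1 proteins. They were picked by symbol. The set was chosen because MPHOSPH8 was much higher in the perturbed library, so the values below describe these genes and are no test of them. RNA came from OVSAHO, an established serous ovarian cancer cell line, in 2 libraries, 1 per group. In the perturbed culture, named OVSAHO-A2-siA4 by the submitters, SMARCA2 expression was raised (genotype label SMARCA2 stable) and SMARCA4 was knocked down; the other culture, OVSAHO-Ctrl-siNC, was the control and carries the genotype label WT. SMARCA2 and SMARCA4 are the alternative ATPase motors of the SWI/SNF chromatin remodeller. Both cultures had spent 2 days in 25 µM carboplatin, a DNA-crosslinking platinum drug, so no untreated level can be given. The sources used here give neither the vector and promoter behind the raised SMARCA2 nor whether each culture was 1 clone.

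HUSH is a complex that keeps retroelements and newly integrated DNA silent. Its subunit MPP8, from MPHOSPH8, binds histone H3 methylated at lysine 9 (H3K9) through a chromodomain, TASOR, from FAM208A, is the scaffold, and periphilin, from PPHLN1, binds RNA. The methyltransferase SETDB1, held stable in the nucleus by ATF7IP, writes the mark, and the ATPase MORC2 compacts chromatin. KAP1 is the corepressor that KRAB zinc finger proteins use to bring SETDB1 to retroelements, and the HP1 proteins bind the methylated histone.

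Levels are FPKM, fragments scaled to transcript length in kilobases and to 1000000 mapped fragments. Comparisons between genes and between libraries are approximate. FPKM summed to 866143 in the perturbed library and 954761 in the control, so ratios between libraries depend on the scaling. With 1 library per group there is no between-culture error and no p-value for any value here. Intervals are 95% Clopper-Pearson intervals on approximate fragment numbers and cover counting error only. The rule of size took genes that reached 1 FPKM in either library. It called a gene higher where the log2 ratio, perturbed over control with 1 FPKM added to each value, was at least 1, and lower where it was at most -1. About 8850000 fragments lay behind the perturbed library and 9050000 behind the control. The perturbed genes were at 2.60 FPKM (SMARCA2) and 4.49 FPKM (SMARCA4) in the perturbed library, against 0.205 and 27.9 FPKM in control cells. Epithelial markers fixed for a serous ovarian line were present in both libraries: 8 of 9 reached 1 FPKM, among them KRT8 at 462 FPKM in perturbed and 488 FPKM in control cells, while MUC16 was listed at 0 in perturbed cells and at 0.0608 FPKM in control cells. They did not move together: KRT7 was at 119 FPKM in perturbed and 540 FPKM in control cells, 4.55-fold lower, and WT1 at 5.52 FPKM in perturbed and 1.53 FPKM in control cells, 3.61-fold higher. Of the markers of other cells, PTPRC, CD3E, COL1A2, DCN, LUM and PDGFRB were listed at 0 in both libraries, and the summed fibroblast list was 0.0985 FPKM in perturbed and 0.154 FPKM in control cells. The summed endothelial list was 0.411 FPKM in perturbed and 0.349 FPKM in control cells. The part of other cells in the results was not tested.

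All 10 genes passed the filter on low values. By the rule of size 4 were higher (MPHOSPH8, TRIM28, PPHLN1 and CBX5), none was lower and 6 lay within 2-fold. At 1.5-fold FAM208A and CBX1 joined them, 6 of 10, where 19.1% of all genes were higher. Over all 11785 genes past the filter, 7.85% were higher and 7.61% were lower, and since the set was chosen on this contrast nothing is read from the difference in share. The 10 genes had a median log2 ratio of 0.79, or 0.66 without MPHOSPH8, and all genes a median of -0.06. Of the genes called over the whole table, 50.8% were higher; with each library scaled to 1 common sum that share was 64.5%, and with ratios centred on their median 62.9%, while 5 of the 10 genes were then higher and none lower, where 10.5% of all genes were higher with the common sum and 9.83% with centring.

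**Figure D1:**
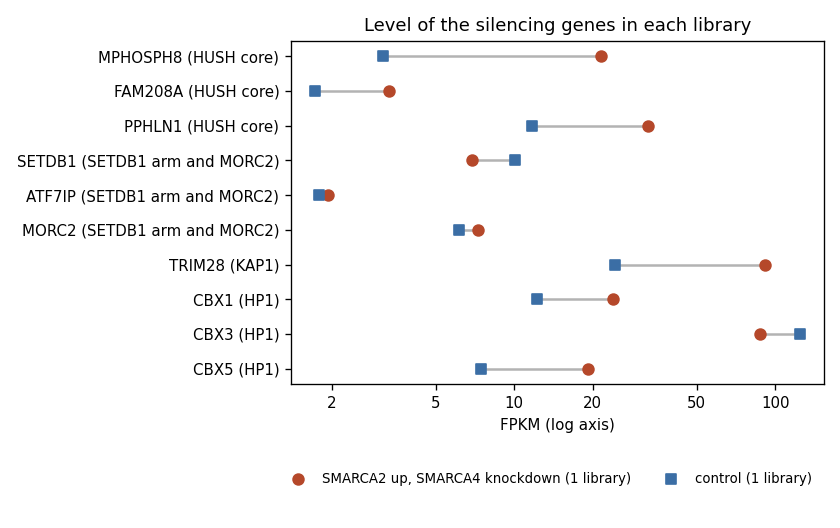
FPKM (log axis) of the 10 silencing genes in the perturbed library (circles) and the control library (squares), 1 library each, with a line joining the 2 values of a gene. MPHOSPH8 spans the widest gap, 21.4 FPKM in perturbed and 3.15 FPKM in control cells, and SETDB1 and CBX3 are the only genes with the perturbed value on the left.

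The sequences before the starts of 4 of these genes are shown because they let the reader see the upstream regions of 3 genes called higher (MPHOSPH8, PPHLN1 and CBX5) beside that of CBX3, an HP1 gene with a ratio in the other direction. They are from RefSeq on GRCh38.p14, another build than the hg19 of the deposited values, and give the 250 bases before the first listed start, on the gene's own strand, 5′ to 3′. Capitals mark matches, on either strand, to any of 7 motifs: the GC box GGGCGG, the CCAAT box CCAAT, the TATA box TATAAA, the ETS core CCGGAAG, the E-box CACGTG, the AP-1 site TGACTCA and the cAMP response element TGACGTCA. No base of these windows belonged to more than 1 match. The bases after the listed start matched a transcript of the gene for PPHLN1, CBX5 and CBX3, but not for MPHOSPH8. Whether the MPHOSPH8 window lies directly before a start used in these cells was not tested. MPHOSPH8 is at chr13:19633409-19633658 (plus strand), PPHLN1 at chr12:42325917-42326166 (plus), CBX5 at chr12:54280123-54280372 (minus) and CBX3 at chr7:26201193-26201442 (plus).
MPHOSPH8: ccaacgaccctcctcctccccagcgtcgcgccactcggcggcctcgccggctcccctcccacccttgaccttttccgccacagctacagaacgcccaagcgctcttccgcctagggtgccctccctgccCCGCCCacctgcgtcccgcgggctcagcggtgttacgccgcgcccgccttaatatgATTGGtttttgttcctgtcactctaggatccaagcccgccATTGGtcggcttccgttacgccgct
PPHLN1: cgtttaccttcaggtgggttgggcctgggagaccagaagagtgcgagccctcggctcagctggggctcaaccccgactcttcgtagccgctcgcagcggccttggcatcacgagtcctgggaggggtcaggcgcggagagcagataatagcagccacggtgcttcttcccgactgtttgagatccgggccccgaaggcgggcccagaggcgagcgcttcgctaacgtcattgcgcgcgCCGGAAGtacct
CBX5: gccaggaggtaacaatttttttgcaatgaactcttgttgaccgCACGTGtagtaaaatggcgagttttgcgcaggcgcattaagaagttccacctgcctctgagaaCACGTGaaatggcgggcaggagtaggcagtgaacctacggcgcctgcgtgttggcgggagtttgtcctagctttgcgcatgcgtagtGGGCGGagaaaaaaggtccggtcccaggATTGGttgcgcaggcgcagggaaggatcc
CBX3: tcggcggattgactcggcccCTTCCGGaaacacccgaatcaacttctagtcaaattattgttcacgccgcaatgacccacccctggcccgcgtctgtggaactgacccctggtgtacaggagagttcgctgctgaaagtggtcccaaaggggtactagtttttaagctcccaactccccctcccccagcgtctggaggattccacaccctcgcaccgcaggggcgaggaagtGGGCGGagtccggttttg

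A promoter entry was found for 9 of the 10 genes, all but TRIM28. A GC box lay in 6 of the 9 windows, against 42.3% of the windows of all 27305 genes with an entry, and a CCAAT box in 5 of 9, against 33%. MPHOSPH8 had 1 GC box and 2 CCAAT boxes, and CBX5 had 1 of each and 2 E-boxes, a motif found in 2 of the 9 windows and in 6.49% of all. PPHLN1 and CBX3 each had 1 ETS core, found in 8.82% of all windows. Neither a TATA box nor an AP-1 site or cAMP response element was found in these 9 windows; their shares over all genes were 11.1%, 4.16% and 1.77%. The 3 genes called higher shared no motif: MPHOSPH8 and CBX5 had the GC and CCAAT boxes and PPHLN1 neither. CpG dinucleotides numbered 26 in the MPHOSPH8 window, 24 in PPHLN1, 17 in CBX5 and 16 in CBX3, against a median of 11 over all genes. SETDB1, with 9, was the only one of the 9 windows below that median. For MPHOSPH8, FAM208A and MORC2 the bases after the listed start did not match a transcript of the gene. Their motif and CpG counts are therefore less certain as counts for an upstream region. A match is a run of letters, not a bound site, and no factor binding was measured.

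The HUSH core genes differed in size of change but all had higher values in the perturbed library. MPHOSPH8 was at 21.4 FPKM in perturbed cells and 3.15 FPKM in control cells, 6.81-fold higher (5.59 to 8.36), on about 766 fragments in perturbed and 115 in control cells. That ratio stood at rank 45 of the 11785 genes, and at 41 among the 5989 genes that reached 10 FPKM in a library. PPHLN1 was at 32.6 FPKM in perturbed and 11.7 FPKM in control cells, 2.79-fold higher (2.32 to 3.38). FAM208A, the scaffold gene, had the lowest level of the trio in each library, 3.33 FPKM in perturbed cells and 1.73 FPKM in control cells, a ratio of 1.92 (1.48 to 2.47) that fell short of 2-fold. Its log2 ratio with the pseudocount was 0.66, with about 181 fragments in perturbed and 96.5 in control cells behind the levels.

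As a consequence of the unequal ratios, the proportions within the core differed between the libraries. MPHOSPH8 made up 37.4% of the summed FPKM of the trio in the perturbed library and 19.0% in the control. PPHLN1 made up 56.8% in perturbed and 70.5% in control cells, and FAM208A 5.80% in perturbed and 10.5% in control cells. The sum itself was 57.4 FPKM in perturbed cells and 16.6 FPKM in control cells. The level of MPHOSPH8 was 6.45 times that of FAM208A in the perturbed library and 1.82 times in the control. These are shares of RNA, and no protein was measured. PPHLN1 has 6 RefSeq-matched transcripts of 1095 to 3377 bases, so its gene-level FPKM may depend on how fragments were divided among isoforms; MPHOSPH8 has 1, of 4235 bases.

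The effector genes did not follow the core. SETDB1, the methyltransferase, was at 6.88 FPKM in perturbed cells and 10.1 FPKM in control cells, a ratio of 0.682 (0.580 to 0.803). ATF7IP, its stabilising partner, was at 1.94 FPKM in perturbed and 1.79 FPKM in control cells, a ratio of 1.08 (0.822 to 1.42) whose interval holds 1. MORC2 was at 7.29 FPKM in perturbed and 6.13 FPKM in control cells, a ratio of 1.19 (1.01 to 1.42). With the length of its shortest transcript the MORC2 interval was 0.997 to 1.42 and held 1. None of the 3 was past 2-fold, and their summed FPKM was 16.1 in the perturbed library and 18 in the control. Exons of SETDB1 overlap those of CERS2, a ceramide synthase gene on the other strand, which was at 81.3 FPKM in perturbed and 198 FPKM in control cells. The library kit does not mark strand, so fragments from the overlap cannot be assigned between them; the part of CERS2 in the SETDB1 value was not tested. MORC2 overlaps its antisense RNA MORC2-AS1 (2.40 FPKM in perturbed and 1.09 FPKM in control cells), FAM208A overlaps CCDC66 (1.77 FPKM in perturbed and 1.89 FPKM in control cells), and PPHLN1 overlaps PRICKLE1 (2.99 FPKM in perturbed and 2.13 FPKM in control cells), each on the other strand.

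TRIM28 had the second highest ratio of the 10 genes. It was at 91.1 FPKM in perturbed cells and 24.4 FPKM in control cells, 3.73-fold higher (3.41 to 4.09), on about 2227 fragments in perturbed and 610 in control cells. This was the highest level of the 10 genes in the perturbed library, where the control had CBX3 first and TRIM28 in place 2. Against SETDB1, the enzyme it recruits, TRIM28 RNA stood at 13.3 times the SETDB1 level in the perturbed library and at 2.42 times in the control. Its closest relatives, the TIF1 genes, differed between themselves: TRIM33 was at 5.48 FPKM in perturbed cells and 2.26 FPKM in control cells, TRIM24 at 3.08 FPKM in perturbed and 4.30 FPKM in control cells, and TRIM66 stayed below 1 FPKM in both libraries.

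The HP1 genes did not share a direction. CBX5, encoding HP1 alpha, was at 19.2 FPKM in perturbed cells and 7.47 FPKM in control cells, 2.57-fold higher (2.06 to 3.25). CBX1, encoding HP1 beta, was at 24.0 FPKM in perturbed and 12.2 FPKM in control cells, a ratio of 1.96 (1.68 to 2.31) and a log2 ratio of 0.92, just short of 2-fold. CBX3, encoding HP1 gamma and the most abundant of them, was at 87.6 FPKM in perturbed and 124 FPKM in control cells, a ratio of 0.707 (0.660 to 0.757). CBX3 took 67.0% of the summed HP1 FPKM in perturbed cells and 86.3% in the control. CBX1 took 18.3% in perturbed and 8.51% in control cells, and CBX5 14.7% in perturbed and 5.20% in control cells. The sum was 131 FPKM in perturbed cells and 144 FPKM in control cells. The level of CBX3 was 4.55 times that of CBX5 in the perturbed library and 16.6 times in the control.

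The HP1 values carry a mapping limit. GENCODE 29 names 9 pseudogenes of CBX3, 5 of CBX1 and 1 of CBX5, and the sources used here do not say how the authors treated fragments that map to several places. CBX5 transcripts run from 894 to 11528 bases, so its fragment number is uncertain: with the shortest length the interval of its fold was 1.82 to 3.68, and with the longest 2.37 to 2.80. Once trends over all genes with length, GC content and level had been taken out, the CBX3 log2 ratio was -0.03 in place of -0.50, CBX1 was at 1.13 and CBX5 at 1.5.

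**Figure D2:**
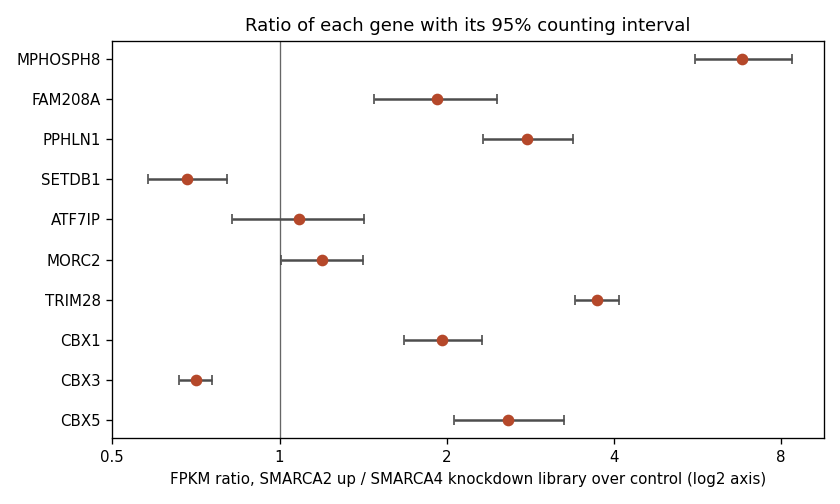
Ratio of FPKM, perturbed over control, for each gene (log2 axis), with 95% Clopper-Pearson intervals for counting error only and a line at a ratio of 1. MPHOSPH8 (6.81) and TRIM28 (3.73) stand farthest to the right, SETDB1 (0.682) and CBX3 (0.707) lie left of 1, and the interval of ATF7IP includes 1.

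**Figure D3:**
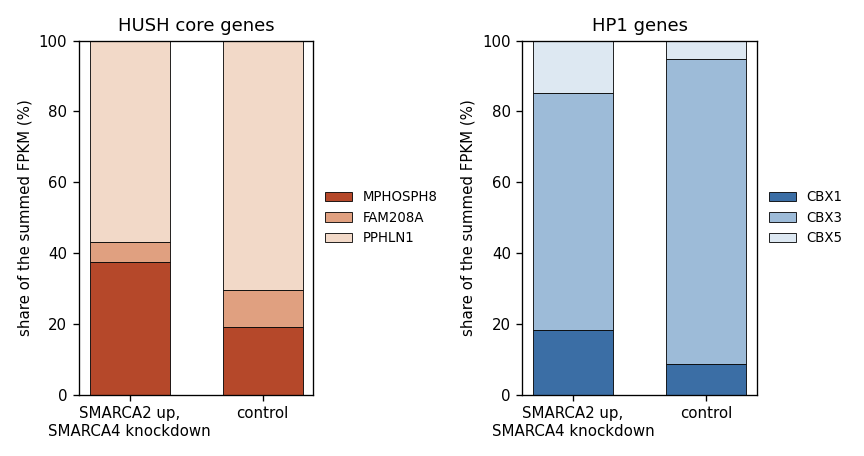
Share of the summed FPKM (%) of the 3 HUSH core genes (left) and the 3 HP1 genes (right) in the perturbed library and the control library. MPHOSPH8 takes 37.4% of the core in the perturbed library and 19.0% in the control, and CBX3 takes 67.0% of HP1 in the perturbed library and 86.3% in the control.

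In the order of levels, MPHOSPH8 was at place 5 of 10 in the perturbed library and at place 8 in the control. SETDB1 was at place 8 in the perturbed library and at place 5 in the control. ATF7IP and FAM208A held the last 2 places in both, below 4 FPKM. By the nearest log2 ratio over these 2 libraries, among genes that reached 10 FPKM, the genes most like MPHOSPH8 (2.44) were LOC643733 (2.46; 13.3 FPKM in perturbed and 1.60 FPKM in control cells), the small nucleolar RNA SNORA73B (2.47; 51.1 FPKM in perturbed and 8.37 FPKM in control cells) and TMEM100 (2.56; 16.2 FPKM in perturbed and 1.92 FPKM in control cells). A likeness over 2 libraries is a single ratio and says nothing of a shared pattern.

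Gene order gave a further description that was not used in choosing the set. Up to 5 genes at 1 FPKM or more were taken on each side of every member, by RefSeq order. Over the 94 different neighbours the median log2 ratio was -0.06, with 9 higher and 9 lower. MPHOSPH8 is the first such gene in the chromosome 13 order and had 5 such neighbours, all on 1 side, with a median log2 ratio of 0.72. Next to it, PSPC1, which encodes a paraspeckle protein, was at 19.5 FPKM in perturbed and 8.68 FPKM in control cells. At place 5, the farthest taken, GJB2, a gap junction gene, was at 17.6 FPKM in perturbed and 5.70 FPKM in control cells. Both were called higher. Between them, ZMYM5 was at 8.09 FPKM in perturbed and 11 FPKM in control cells, and GJA3 at 1.08 FPKM in perturbed and 0.993 FPKM in control cells. ZMYM2, at 1.93 FPKM in perturbed and 0.776 FPKM in control cells, had a plain ratio of 2.48 (1.87 to 3.33) but was not called. Of these neighbours only ZMYM5 had a ratio below 1 (0.737), and none reached the 6.81-fold ratio of MPHOSPH8. The 9 neighbours of TRIM28 on chromosome 19 had a median of 0.62 and a range of -0.32 to 1.32, below the 1.86 of TRIM28. Whether copy number differed between the cultures was not tested.

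Around the HP1 genes the neighbours differed from the members in places. Next to CBX5, HNRNPA1, which encodes a splicing regulator, was at 384 FPKM in perturbed and 103 FPKM in control cells, 3.71-fold higher. At place 5 on the same side, GTSF1, a germline factor, was listed at 0 in the perturbed library and at 186 FPKM in control cells. CBX3 starts 697 bases from HNRNPA2B1, head to head on opposite strands, and the pair had ratios in opposite directions: HNRNPA2B1 was at 175 FPKM in perturbed and 99.2 FPKM in control cells, a ratio of 1.76, beside 0.707 for CBX3. Their exons overlap in GENCODE 29, with the same limit on strand as for SETDB1. PPHLN1 starts 73 bases from ZCRB1, also head to head, which was at 68.8 FPKM in perturbed and 41.8 FPKM in control cells, a ratio of 1.65. MORC2 starts 491 bases from the long non-coding RNA TUG1, at 3.59 FPKM in perturbed and 2.1 FPKM in control cells. These head-to-head partners were looked up, within 1000 bases, after the values had been seen.

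**Figure D4:**
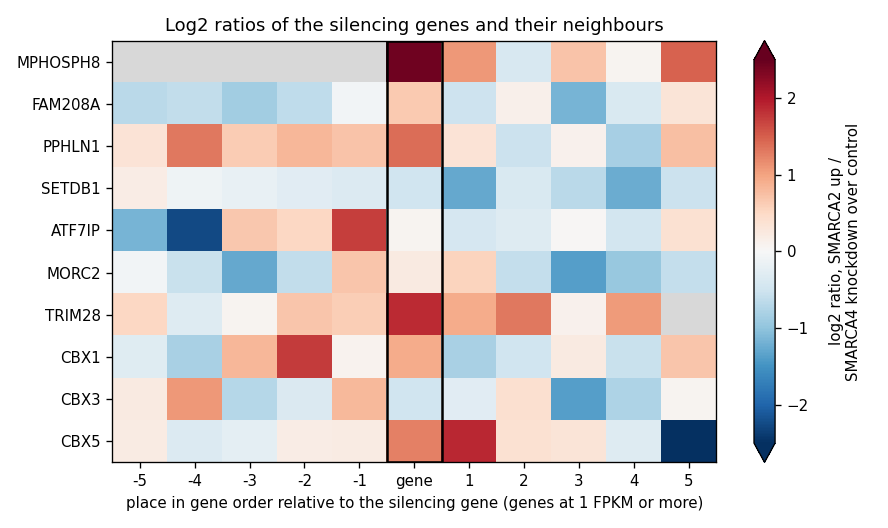
Log2 ratio, perturbed over control with 1 FPKM added, of each silencing gene (boxed column) and of its nearest genes at 1 FPKM or more in RefSeq order (up to 5 places on each side; grey where there is none). Colours end at 2.5 in each direction, so GTSF1, listed at 0 in the perturbed library at place 5 of the CBX5 row, is past the scale; the MPHOSPH8 and TRIM28 rows hold no neighbour as high as the gene itself.

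Related silencing genes were taken from lists. Over the 111 genes of 11 related lists, 97 passed the filter, 5 were higher (5.15%) and 4 lower (4.12%), with a median log2 ratio of 0.12. The shares over all genes past the filter were 7.85% higher and 7.61% lower. Calls on these lists use the ratio with the pseudocount. Among genes past the filter, 8 further ones, 6 higher and 2 lower, had a plain FPKM ratio past 2-fold without being called. Listed genes below the filter are not in that count. Among HUSH paralogs and associated factors none of 5 was called, though the plain ratio of MORC3, at 1.06 FPKM in perturbed and 2.21 FPKM in control cells, was 2.09-fold lower. ATF7IP2, below the filter at 0.767 FPKM in perturbed and 0.128 FPKM in control cells, had a plain ratio of 5.97 (2.01 to 23.4). ZNF638, the HUSH-linked DNA-binding protein NP220, was at 5.84 FPKM in perturbed and 3.38 FPKM in control cells and MORC4 at 4.43 FPKM in perturbed and 4.30 FPKM in control cells. FAM208B, the paralog of the scaffold gene, was at 2.16 FPKM in perturbed and 1.77 FPKM in control cells, a log2 ratio of 0.19 beside 0.66 for FAM208A. Of 7 other H3K9 methyltransferases and partners none was called. WIZ, a zinc finger partner of the G9a and GLP methyltransferases, lay next to the threshold at a log2 ratio of 0.99 (10.8 FPKM in perturbed and 4.95 FPKM in control cells, 2.19-fold), and 1 gene of the list was called higher with a common sum, with centring or with a pseudocount of 0.1 FPKM. The list's most abundant genes were nearer the control level, with EHMT2 at 31.5 FPKM in perturbed and 26.0 FPKM in control cells and SUV39H1 at 24.0 FPKM in perturbed and 36.7 FPKM in control cells, and a median of 0.32. None of 8 H3K9 demethylases was called either, with KDM1A at 47.9 FPKM in perturbed and 40.3 FPKM in control cells and KDM3A at 6.77 FPKM in perturbed and 7.29 FPKM in control cells, and a median of 0.20. Of these 8, 5 had a log2 ratio above 0. KDM3B came nearest to the rule, at 7.94 FPKM in perturbed and 4.01 FPKM in control cells, a ratio of 1.98 (1.69 to 2.32).

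NuRD, the deacetylase and remodeller complex that KAP1 recruits, had 3 of 13 genes higher and none lower. Of all genes, 7.85% were higher and 7.61% lower. The remodeller CHD4 was at 24.8 FPKM in perturbed and 9.41 FPKM in control cells, 2.64-fold higher (2.39 to 2.92), GATAD2A at 18.8 FPKM in perturbed and 7.58 FPKM in control cells, 2.48-fold (2.2 to 2.80), and MBD3 at 46.6 FPKM in perturbed and 22.3 FPKM in control cells, 2.09-fold (1.92 to 2.28). The list median was 0.15, and its most abundant subunits were close to the control level: RBBP7 was at 213 FPKM in perturbed and 241 FPKM in control cells and HDAC1 at 95.8 FPKM in perturbed and 117 FPKM in control cells. The SUMO pathway, which modifies KAP1 so that it can bind SETDB1 and NuRD, had none of 16 called and a median of 0.13; SENP7, a SUMO protease at 1.1 FPKM in perturbed and 0.538 FPKM in control cells, had a plain ratio of 2.05. SUMO2 was at 540 FPKM in perturbed and 657 FPKM in control cells and SUMO3 at 130.0 FPKM in perturbed and 110.4 FPKM in control cells.

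Heterochromatin maintenance and HP1 binding counted 18 genes, of which 2 were higher and 1 was lower, beside 7.85% and 7.61% of all genes. Their median log2 ratio was 0.21, and 10 of the 18 lay above 0. INCENP and ADNP fell just short of the rule, at log2 ratios of 0.996 and 0.962 and plain ratios of 2.64 and 2.07. On the lower side DAXX and UHRF1 were at log2 ratios of -0.859 and -0.826. The remodeller ATRX was at 2.42 FPKM in perturbed and 0.633 FPKM in control cells, 3.82-fold higher (2.87 to 5.18), and the remodeller HELLS at 19.2 FPKM in perturbed and 7.50 FPKM in control cells, 2.56-fold higher (2.15 to 3.08). LBR, the lamin B receptor, which tethers HP1 at the nuclear envelope, was at 15.3 FPKM in perturbed cells and 32.5 FPKM in control cells, 2.12-fold lower (1.90 to 2.37). With libraries scaled to a common sum, 4 of the 18 were higher and none lower, where 10.5% of all genes were higher and 5.80% lower. The other chromodomain genes had none of 6 called, with CBX2 at 14.1 FPKM in perturbed and 21.9 FPKM in control cells and CBX8 at 15.0 FPKM in perturbed and 19.0 FPKM in control cells.

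KRAB zinc finger genes with known KAP1 roles had none of 5 called and a median of -0.41 (0.05 over all 8 listed genes without the filter), with ZNF93, a repressor of LINE-1 elements, at 16.0 FPKM in perturbed and 13.9 FPKM in control cells and ZNF274 at 4.56 FPKM in perturbed and 6.38 FPKM in control cells. Of 8 factors that restrict retroelements or clear their nucleic acids, 2 were lower and none higher. Over all genes past the filter, 7.61% were lower and 7.85% higher. SAMHD1, a dNTP hydrolase, was at 5.40 FPKM in perturbed and 15.2 FPKM in control cells, 2.82-fold lower (2.39 to 3.33), and the exonuclease TREX1 at 36 FPKM in perturbed and 88.9 FPKM in control cells, 2.47-fold lower (2.18 to 2.80). All 8 had a log2 ratio below 0, or 7 of 8 once libraries were scaled to a common sum, and the median was -0.36. Without that scaling all genes had a median of -0.06, and 46.5% of them lay above 0. Of 9 sensors of foreign nucleic acids, OAS1 was lower, 1.0 FPKM in perturbed and 3.39 FPKM in control cells (3.37-fold, 1.88 to 6.49), and the median was -0.20. MB21D1, encoding the DNA sensor cGAS, was listed at 0 in both libraries. No retroelement transcripts are in the tables used here, so the activity of silencing was not measured.

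**Figure D5:**
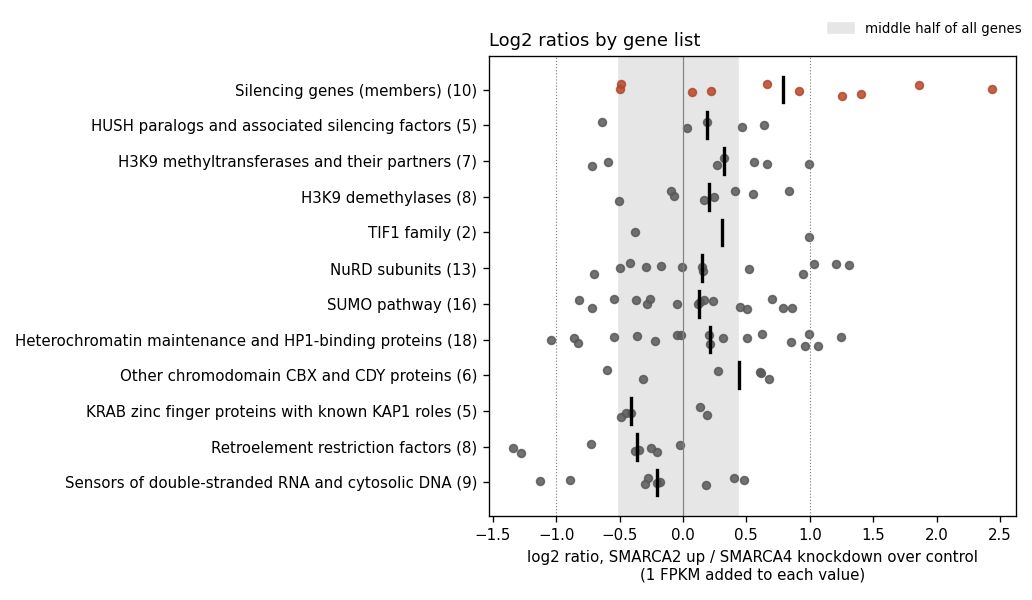
Log2 ratios, perturbed over control with 1 FPKM added, of the 10 silencing genes (top row) and of 11 related lists, with the number of genes past the filter in brackets. Points are genes, thick bars are medians, dotted lines mark the 2-fold rule and the grey band runs from the lower to the upper quartile of all genes. The top row has the rightmost points, and the retroelement restriction row lies wholly below 0.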

How the data were processed

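RNA was measured in 2 libraries, 1 perturbed and 1 control, grouped by the genotype labels. Per the labels' protocols, cDNA was made from total RNA with a SMART-Seq HT kit and libraries with Nextera XT. The authors deposited FPKM per gene symbol, per the file headers; Cuffdiff 2.2.1, TopHat2 2.1.1, SAMtools 0.1.18, Bowtie2 2.2.8 and hg19 are named in the submitters' processing notes. The sources used here state neither the annotation nor any scaling between libraries. Where software divides fragments among isoforms, gene values can move with that division.

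Depth was estimated from the FPKM of 11725 genes with 1 RefSeq-matched GENCODE 29 transcript of at least 300 bases. The depths and a shortening of the transcript by 200 bases were chosen to put as many values as possible in a window 2% wide. That window was taken as 1 fragment and held 515 values over both libraries, a small part of all values, so fragment numbers are approximate. Fragment numbers used the median transcript length of a gene. The scripts were checked on simulated data with known depths and folds. Python 3.11.15, numpy 2.4.6, pandas 2.3.3 and scipy 1.17.1 were used.

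The 10 genes, the related lists and the rules were chosen with earlier results of these data known. The genes named were the 10 members, SMARCA2 and SMARCA4, up to 4 genes per direction past the rule in each list or its 2 most abundant, the neighbours of MPHOSPH8 and the 3 genes nearest to it in ratio; neighbours of other members, overlapping genes and a few list genes were added after their values were seen. The summed leukocyte marker list and 1 of its genes are not reported here.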

Additional observations from a re-analysis of the deposited data

How the results depend on the processing

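No paired analysis was possible because there was 1 library per group. MPHOSPH8, PPHLN1 and TRIM28 were past 2-fold under each of 6 other pseudocounts, scalings and trend corrections. Across these and the main setting the log2 ratio of MPHOSPH8 ran from 1.70 (pseudocount of 5 FPKM) to 2.73 (0.1 FPKM). CBX5 was at 0.96 with 5 FPKM and past the rule otherwise. CBX1 passed in 3 of 7 settings, at 1.06 with a common sum, 1.02 when centred and 1.13 with trends removed. ATF7IP was at -0.23 with trends removed. The median of the 10 genes was 0.53 with a pseudocount of 5 FPKM and 1.09 among the 8 at 5 FPKM or more in a library. With a 4-fold rule 1 was higher, and with a 1.5-fold rule 6, against 19.1% of all genes. None was lower in any setting. Scaling to a common sum moved the median of all genes from -0.06 to 0.06. Over all genes, 925 were higher and 897 lower; the counts were 1630 and 1267 with 0.1 FPKM, 219 and 380 with 5 FPKM, 1242 and 683 with a common sum, 1158 and 684 when centred, 546 and 694 at 5 FPKM or more, 557 and 700 at 1 FPKM in both libraries, 2253 and 2505 at 1.5-fold and 71 and 84 at 4-fold. With trends removed, 756 of 11362 genes were higher (6.65%) and 721 lower (6.35%). Of all genes, 10.5% were higher and 5.80% lower with a common sum, and 9.83% and 5.80% when centred. With a pseudocount of 0.1 FPKM the shares were 13.8% and 10.8%, and with 5 FPKM 1.86% and 3.22%. At 5 FPKM or more they were 6.96% and 8.85%, and at 1 FPKM in both libraries 5.45% and 6.85%. The list counts below stand beside these shares. LBR was not past the rule with a common sum, centring, trends removed or a pseudocount of 5 FPKM. With that pseudocount 1 NuRD gene was higher (CHD4), 1 restriction factor was lower (TREX1), and ATRX, HELLS and OAS1 were not called. The heterochromatin list had 1 gene higher in place of 2 with trends removed, at 5 FPKM or more and at 1 FPKM in both libraries, and 4 with a common sum, centring or 0.1 FPKM; NuRD had 2 in place of 3 with trends removed and 4 under those same scalings and 0.1 FPKM. The SUMO list had 1 gene higher with trends removed, the TIF1 list 1 with a common sum, centring or 0.1 FPKM, and the sensor list 2 lower with trends removed or 0.1 FPKM and none with the 5 FPKM filter. With the 5 FPKM filter the medians of the NuRD, heterochromatin and sensor lists were -0.18, -0.01 and 0.000525 and that of the KRAB zinc finger list -0.11, beside -0.17 over all genes, so the sensor and KRAB lists then lay above all genes; without a filter the KRAB median was 0.05. For FAM208A and ATF7IP, at about 100 to 200 fragments a library, depth limits the precision. The control values of MPHOSPH8, CBX5 and PPHLN1, on about 115, 110 and 155 fragments, carry the same limit.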
